A study of Homo sapiens with 12 samples.

Results

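Ibrutinib alone was compared with control in 6 of the 12 RNA-seq libraries of the series, the 3 labelled Ibru and the 3 labelled Ctrl, with 1 library of each from the cell lines JEKO1, JVM2 and MAVER1. All 3 are established human lines of mantle cell lymphoma (MCL), a B-cell lymphoma marked by overexpressed cyclin D1. The cells were kept for 48 h without drug or with ibrutinib at 0.5 μM (JEKO1), 1.5 μM (JVM2) or 6.25 μM (MAVER1), so that the dose changed with the line and the 2 cannot be told apart. The other 6 libraries held the same lines with ironomycin, an iron-sequestering derivative of salinomycin, or with ironomycin and ibrutinib. Ironomycin was given at 50 nM in JEKO1 and 250 nM in JVM2 and MAVER1, so that its dose was not the same in every line either. Of the 63677 genes in the count table, 15705 passed the low-count filter in the 6 libraries, and each line served as its own control (n = 3 lines). A treatment was sequenced once per line, so single-line values have no replicate check.

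The 6 libraries held 38013076 to 38613663 (ibrutinib) and 38110422 to 38630809 (control) counted reads. The B-cell genes MS4A1, CD79A and PAX5 had 6598 reads or more in each library. JVM2 lacked reads of SOX11 (0 in both libraries) and had 1 read of CD5 in each, both of them markers of classical MCL, and it held CCND2 reads (8501 and 9648) that the other lines nearly lacked. Markers of other cell types had few reads beside these genes. The 8 myeloid markers, among them CD14, LYZ and MPO, summed to 51 reads in the JEKO1 control and 52 with ibrutinib, 455 and 482 in JVM2, and 123 and 148 in MAVER1, with FCGR3A at 0 in every library. The 9 T and NK cell markers summed to 29 to 354 reads per library. The 8 stromal and epithelial markers summed to 277 and 240 reads in JEKO1, 382 and 417 in JVM2, and 1296 and 1387 in MAVER1. In MAVER1, COL1A1 had 801 and 813 of these reads and EPCAM 282 and 302.

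Ibrutinib binds covalently to a cysteine in the active site of BTK, the kinase that carries the signal of the B-cell receptor (BCR) from SYK and LYN to PLCG2. From there the signal runs through calcium, ERK and the NF-κB pathway and switches on immediate-early genes such as EGR1, chemokines and survival genes. BTK inhibitors are used to treat MCL because many of these tumours depend on BCR signals, and MAVER1 is known as a line that resists them.

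In the 3 lines together, 12 genes fell and 4 rose with ibrutinib in edgeR's quasi-likelihood test (p-value adjusted by Benjamini and Hochberg's method under 0.05), which is 0.102% of the genes tested. The falls included the immediate-early genes EGR1 and NR4A1, and the rises were in RAG1, VPREB1, TMCC2 and an unnamed gene. At an unadjusted p-value under 0.05, 575 genes were higher (3.66%) and 906 lower (5.77%), and these shares are the background for the gene groups described here. Regardless of any test, 2489 genes (15.8%) were higher and 2558 (16.3%) lower in every line. Much of the list of called genes came from JEKO1 and MAVER1: 10 of the 16 (62.5%) had fewer than 20 reads in both JVM2 libraries, against 13.2% of all genes tested. Without JVM2 the test called 147 genes, among them all 16, while without MAVER1 it called 2 and without JEKO1 none (1022 at an unadjusted p-value under 0.05). The shares lower and higher at that unadjusted p-value were 3.86% and 2.2% without JEKO1, 6.37% and 4.64% without JVM2, and 3.9% and 2.33% without MAVER1. These are the background for counts of list members in fits that leave out a line. Without the cell line as a term no gene was called (5 at an unadjusted p-value under 0.05), and DESeq2 with the line as a term called 93, these 16 included.

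**Figure D1:**
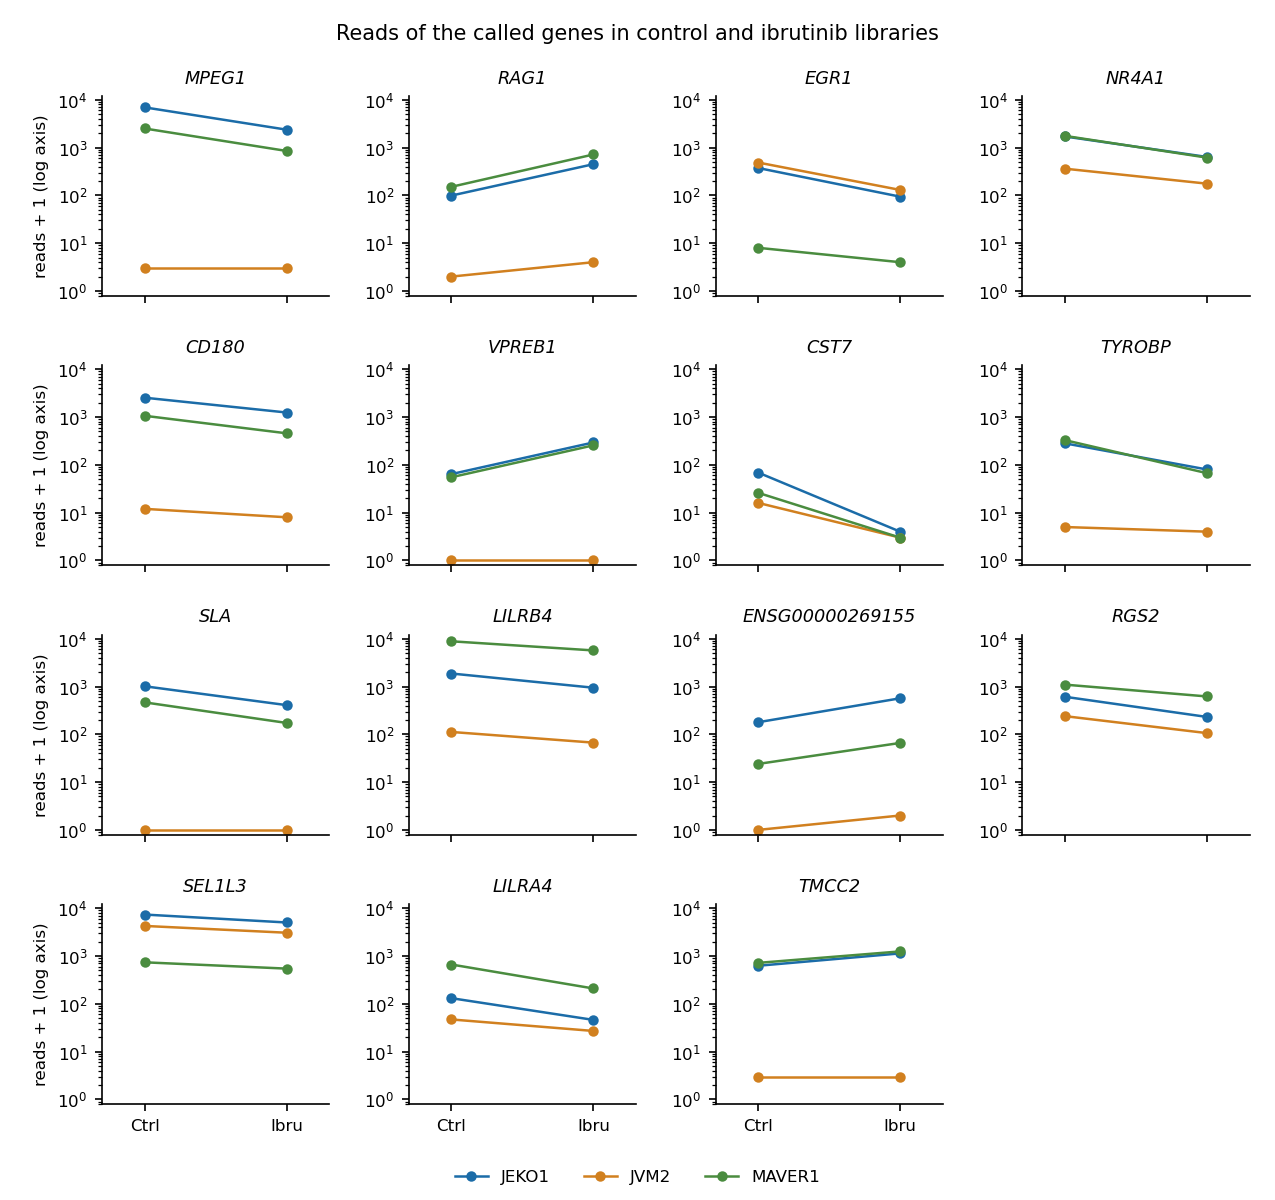
Reads (plus 1, log axis) of 15 of the 16 called genes in the control (Ctrl) and ibrutinib (Ibru) library of each cell line, with 1 line joining the 2 libraries of a cell line. EGR1, NR4A1, CST7, LILRB4, RGS2, SEL1L3 and LILRA4 were lower with ibrutinib in every line, while JVM2 sat at the bottom of the axis for MPEG1, RAG1, VPREB1, SLA and TMCC2.

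Among the immediate-early genes, which BCR signals induce soon after the receptor is engaged, EGR1 and NR4A1 fell with ibrutinib. EGR1, a zinc finger transcription factor, went from 373 to 93 reads in JEKO1, 486 to 129 in JVM2 and 7 to 3 in MAVER1. Its log2 fold change was -1.95 (standard error 0.14, adjusted p = 0.00821), and its reads came almost wholly from JEKO1 and JVM2. NR4A1, the orphan nuclear receptor NUR77, fell from 42.1 to 15.7 normalised CPM (reads scaled to the size of the library) in JEKO1, 10.1 to 4.78 in JVM2 and 47.1 to 16.1 in MAVER1. Its log2 fold change was -1.38 (standard error 0.10, adjusted p = 0.00821), and the ratios of all 3 lines lay between -1.54 and -1.07. EGR2, the paralogue of EGR1, missed the threshold although its change was larger (-2.22, standard error 0.34, adjusted p = 0.126). It had 312 and 31 reads in JEKO1, 314 and 80 in JVM2 and 66 and 32 in MAVER1, and its effect differed between lines (adjusted p = 0.0349).

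The promoters of EGR1 and EGR2 are shown because CArG boxes, the sites bound by serum response factor downstream of ERK, are a textbook feature of immediate-early genes. CArG boxes (CC, then 6 bases that are A or T, then GG) are in capitals, and each sequence is the 250 bases before a RefSeq transcription start (GRCh38.p14), read 5′ to 3′ on the strand of the gene: chr5:138465229-138465478, plus strand, for EGR1 and chr10:62816367-62816616, minus strand, for EGR2.
EGR1: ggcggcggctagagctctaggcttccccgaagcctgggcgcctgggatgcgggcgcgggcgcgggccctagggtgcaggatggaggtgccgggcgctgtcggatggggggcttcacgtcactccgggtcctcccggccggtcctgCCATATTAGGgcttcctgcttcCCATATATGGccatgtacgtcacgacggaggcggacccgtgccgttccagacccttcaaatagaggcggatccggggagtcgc
EGR2: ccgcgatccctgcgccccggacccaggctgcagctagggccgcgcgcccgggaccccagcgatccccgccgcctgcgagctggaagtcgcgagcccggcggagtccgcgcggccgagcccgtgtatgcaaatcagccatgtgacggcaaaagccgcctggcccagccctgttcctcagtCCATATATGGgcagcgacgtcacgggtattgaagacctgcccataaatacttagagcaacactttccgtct
The EGR1 window held 2 boxes, at 105 to 96 and 83 to 74 bases before the start, and the EGR2 window 1, at 71 to 62 bases before it. Over all 35116 RefSeq promoter windows of this length, 1.16% held a CArG box on either strand. For 24 genes of the BCR-induced list a promoter was found, with 32 windows in all, of which these 2 (6.25%) held one. The matches describe the letters of the windows and say nothing of binding in these cells.

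The BCR-induced list (34 genes written down, 30 tested) had a median log2 fold change of -0.46, against 0.0014 over all genes tested. Of its members 2 were called, 8 had an unadjusted p-value under 0.05, each of them lower, and 10 were lower in all 3 lines. The other members of these 8, beside EGR1, NR4A1 and EGR2, were EGR3 (-1.46), NR4A3 (-1.03), DUSP2 (-0.68), FOSB (-0.62) and JUN (-0.50). DUSP2, a nuclear phosphatase that inactivates MAP kinases, went from 63.5 to 31.0 normalised CPM in JEKO1, 151 to 110 in JVM2 and 33.8 to 22.9 in MAVER1. EGR3 had no read in MAVER1, and its value comes from JEKO1 (128 and 19 reads) and JVM2 (238 and 139). MYC, although a classical BCR target, had 772 and 789 normalised CPM in JEKO1, 233 and 249 in JVM2 and 595 and 604 in MAVER1 (log2 fold change 0.05, standard error 0.05, adjusted p = 0.788). CCND2 had 237 normalised CPM in the JVM2 control and 264 with ibrutinib, and at most 25 reads in any library of the other lines. Values for CCL3 and CCL4, chemokines of activated B cells, are not given, since no gene in the table was matched to them.

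The lines differed within this list. In JEKO1, 29 of the 30 members were lower with ibrutinib, 23 of them by at least 1 on the log2 scale, with a median log2 ratio of -1.38. In JVM2, 13 were lower and 17 higher, with a median of 0.06, and in MAVER1 19 were lower and 10 higher, with a median of -0.23. Without JVM2, 19 members were lower at an unadjusted p-value under 0.05 and the fitted median was -0.80, whereas without JEKO1 8 were lower and 2 higher, with a median of -0.12. Of all genes, 6.37% were lower without JVM2, and 3.86% were lower and 2.2% higher without JEKO1. The list of NF-κB targets and regulators, with all 26 members tested, had signs that also differed by line: 25 were lower in JEKO1 (median -0.98), 24 were higher in JVM2 (median 0.17), and MAVER1 was split at 13 and 13 (median 0.01). No member of it was called by edgeR or by DESeq2, and 1 was higher and 1 lower at an unadjusted p-value under 0.05 (12 lower without JVM2). CD83, an activation marker of B cells, went from 79.9 to 13.0 normalised CPM in JEKO1, whereas it had 34.5 and 37.5 in JVM2 and 31.5 and 32.1 in MAVER1. RELB, a subunit of non-canonical NF-κB, went from 106 to 29.0 in JEKO1 and had 38.3 and 49.1 in JVM2 and 143 and 114 in MAVER1. TNFAIP3, which encodes the NF-κB inhibitor A20, went from 21.4 to 5.33 in JEKO1 and had 174 and 178 in JVM2 and 72.4 and 76.0 in MAVER1. These 3 genes were picked from the list after their values were seen. In the test for a difference of the ibrutinib effect between lines, which called 0.948% of 18674 genes, 8 of the 30 BCR-induced members and 5 of the 26 NF-κB members were called. Some members, such as CD83, belong to both lists.

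**Figure D2:**
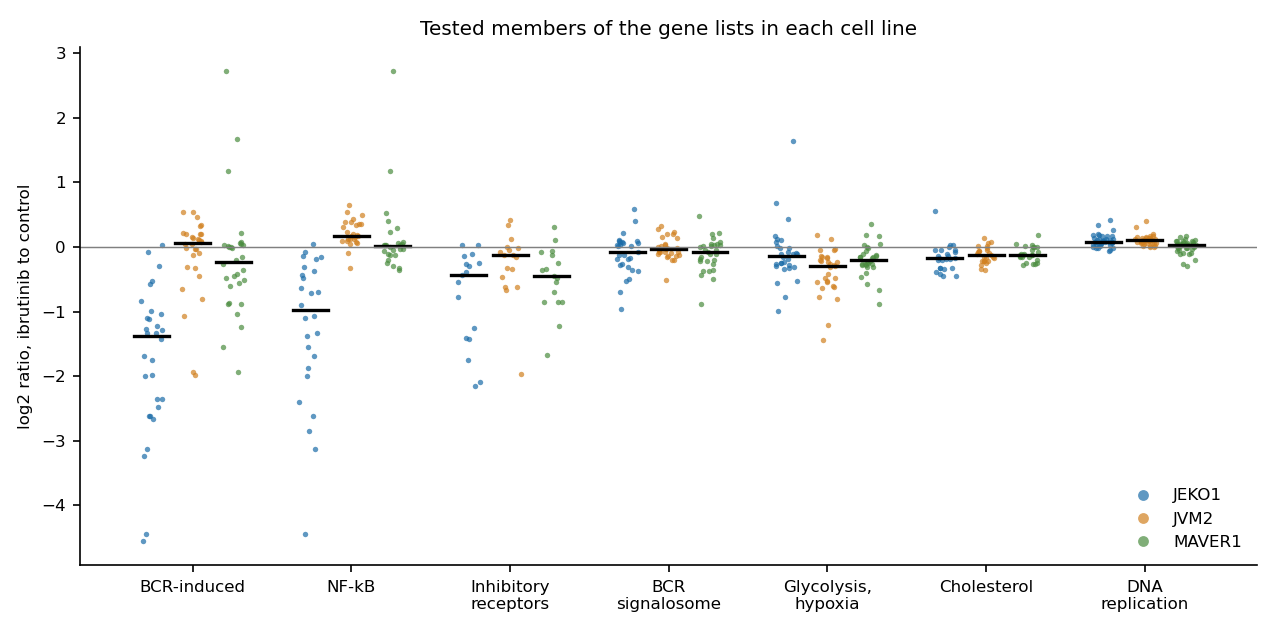
Log2 ratio of normalised CPM, ibrutinib to control, for each tested member (dots) of 7 gene lists in each cell line, with the median as a black bar. The BCR-induced and NF-κB medians lay at -1.38 and -0.98 in JEKO1 and at 0.06 and 0.17 in JVM2, while the glycolysis and cholesterol medians were below 0 in every line.

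RAG1 and VPREB1, genes of B-cell precursors, rose with ibrutinib in JEKO1 and MAVER1. RAG1, a subunit of the recombinase that assembles antibody genes, went from 98 to 448 reads in JEKO1 and from 150 to 716 in MAVER1, and had 1 and 3 reads in JVM2. Its log2 fold change was 2.20 (standard error 0.13, adjusted p = 0.00363), with near equal ratios in JEKO1 (2.17) and MAVER1 (2.21). VPREB1, part of the surrogate light chain of the pre-B-cell receptor, went from 63 to 293 reads in JEKO1 and from 54 to 255 in MAVER1, with 0 in both JVM2 libraries (log2 fold change 2.21, standard error 0.17, adjusted p = 0.0306). RAG1 belongs to the list of FOXO targets, in which it was the 1 called member of 21 tested. Over the whole list 3 members were higher (RAG1, INSR and GADD45A) and 1 lower at an unadjusted p-value under 0.05, and the median was 0.006. IL7R, the interleukin-7 receptor of precursor B cells and a FOXO target as well, was the lower one, at 9.71 and 2.67 normalised CPM in JEKO1, 1.15 and 1.07 in JVM2 and 4.61 and 2.57 in MAVER1 (-1.13, adjusted p = 0.348). TMCC2 went from 623 to 1131 reads in JEKO1 and from 716 to 1245 in MAVER1 (0.81, adjusted p = 0.0469), with 2 reads in each JVM2 library. The unnamed gene ENSG00000269155 went from 178 to 566 reads in JEKO1 and from 23 to 65 in MAVER1, with 0 and 1 in JVM2 (1.62, adjusted p = 0.0384).

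MPEG1, CD180, TYROBP and SLA fell in JEKO1 and MAVER1 and had few reads in JVM2. MPEG1, the pore-forming protein perforin-2, fell from 6944 to 2368 reads in JEKO1 and from 2508 to 849 in MAVER1, with 2 reads in each JVM2 library. It had the lowest p-value of all genes (log2 fold change -1.56, standard error 0.09, adjusted p = 0.00363). CD180, a relative of the Toll-like receptors found on B cells, acts through LYN and BTK. It went from 62.6 to 30.7 normalised CPM in JEKO1 and from 28.5 to 11.9 in MAVER1 (-1.12, adjusted p = 0.0185), with 11 and 7 reads in JVM2. TYROBP, the adaptor DAP12 that recruits SYK, went from 281 to 79 reads in JEKO1 and from 328 to 66 in MAVER1 (-2.03, adjusted p = 0.0362), with 4 and 3 in JVM2. In each of these genes the JEKO1 and MAVER1 libraries with ibrutinib were below their controls. SLA, the Src-like adaptor, went from 1011 to 407 reads in JEKO1 and from 465 to 172 in MAVER1 (-1.38, adjusted p = 0.0362), with 0 in JVM2.

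The remaining called falls were seen in all 3 lines. CST7, cystatin F, an inhibitor of lysosomal proteases, went from 68 to 3 reads in JEKO1, 15 to 2 in JVM2 and 25 to 2 in MAVER1, and its log2 fold change (-3.86, standard error 0.39, adjusted p = 0.0362) rests on these few reads. CST7 is also expressed by T and NK cells, whose 9 markers summed to 149 and 104 reads in JEKO1, 354 and 277 in JVM2 and 29 and 40 in MAVER1, and the part of such cells in its change was not tested. In bulk RNA, fewer cells of a type and less RNA per cell cannot be told apart. LILRB4, an inhibitory receptor of the leukocyte immunoglobulin-like family, went from 46.1 to 23.3 normalised CPM in JEKO1, 3.10 to 1.80 in JVM2 and 237 to 149 in MAVER1 (-0.81, adjusted p = 0.0362). LILRA4, of the same family, went from 130 to 45 reads, from 46 to 26 and from 662 to 208 in the same order of lines (-1.50, adjusted p = 0.0469). Reads of these receptor genes can be split among close relatives. RGS2, which damps signals of G-protein-coupled receptors, went from 609 to 230 reads in JEKO1, 239 to 105 in JVM2 and 1094 to 619 in MAVER1 (-1.13, adjusted p = 0.0384). SEL1L3 had the smallest change of the called genes, and the most even: its log2 ratios were -0.55, -0.50 and -0.47 (fold change -0.51, standard error 0.06, adjusted p = 0.0422). MPEG1, TYROBP and the LILR genes are expressed by myeloid cells too. The summed myeloid markers had 51 and 52 reads in JEKO1, 455 and 482 in JVM2 and 123 and 148 in MAVER1. These are few reads, in MAVER1 mostly of ITGAM (95 and 93), and the part of such cells in the falls was not tested.

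Among inhibitory receptors and phosphatases of the BCR pathway no member was called, and most had lower levels with ibrutinib. Of 21 genes written down, 17 were tested. At an unadjusted p-value under 0.05, 11 of them were lower and 0 higher, 12 were lower in all 3 lines, and the median log2 fold change was -0.42. DESeq2 called 3 of them. PTPN6, the phosphatase SHP-1 that shuts down BCR signals at inhibitory receptors, had 296 and 66.4 normalised CPM in JEKO1, 729 and 472 in JVM2 and 122 and 52.3 in MAVER1. Its log2 fold change was -1.33 (standard error 0.25, adjusted p = 0.185), and its effect differed between lines (adjusted p = 0.0031), with a log2 ratio of -2.16 in JEKO1 and -0.63 in JVM2. FCRL5, an Fc receptor-like protein that binds SHP-1, had 34.3 and 8.05 normalised CPM in JEKO1, 19.1 and 4.87 in JVM2 and 48.5 and 29.8 in MAVER1 (-1.53, adjusted p = 0.160). CD72, another receptor that recruits SHP-1, was lower in each line, with log2 ratios of -0.43, -0.67 and -0.85 (fold change -0.64, standard error 0.10, adjusted p = 0.123). CD22 had 26.3 and 21.7 normalised CPM in JEKO1, 330.4 and 303.5 in JVM2 and 56.9 and 47.7 in MAVER1 (-0.21, adjusted p = 0.366). The others at an unadjusted p-value under 0.05 were FCRL2 (-1.03), CD5 (-0.93), PTPN22 (-0.63), DOK2 (-0.42), FCGR2B (-0.40), DOK3 (-0.30) and INPP5D (-0.14), the last of which encodes the lipid phosphatase SHIP-1. CD5 and FCRL2 had at most 1 read in JVM2, so their direction in that line carries little weight. Leaving out 1 line left 9 to 13 members lower at an unadjusted p-value under 0.05, where 3.86% to 6.37% of all genes were lower.

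The proximal BCR machinery held no called gene. Of the BCR signalosome list (29 of 30 tested), 0 members were called by edgeR and 1 by DESeq2. At an unadjusted p-value under 0.05, 6 were lower and 1 higher, and the median was -0.06. BTK, the target of the drug, had 194 and 207 normalised CPM in JEKO1, 131 and 120 in JVM2 and 214 and 185 in MAVER1 (-0.08, standard error 0.07, adjusted p = 0.744). CD79A (-0.03) and CD79B (0.18), the signalling chains of the BCR, and SYK (-0.10) had unadjusted p-values of 0.663, 0.207 and 0.143. CD79B stood at 547 and 824 normalised CPM in JEKO1, 121 and 109 in JVM2 and 518 and 544 in MAVER1. LYN, the kinase that starts both activating and inhibitory BCR signals, was lower in all 3 lines, at 166 and 102 in JEKO1, 254 and 235 in JVM2 and 210.1 and 163 in MAVER1 (-0.39, standard error 0.10, adjusted p = 0.356). PLCG2 (-0.22), VAV1 (-0.31), RASGRP1 (-0.39) and RASGRP3 (-0.27) were the other named members on the lower side, and PIK3CD, the PI3-kinase subunit p110δ, on the higher (0.14, adjusted p = 0.493).

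Of the 10 kinases with a cysteine matching that of BTK, which ibrutinib can also bind, 5 passed the filter. TEC had 865 and 572 reads in JVM2, and fewer than 40 in any library of the other lines (-0.53, adjusted p = 0.432). BLK, with log2 ratios of -0.12, 0.32 and -0.38, had an adjusted p of 0.914, ERBB2 (-0.11) one of 0.655 and JAK3 (-0.19) one of 0.759. TXK, BMX and EGFR had at most 19 reads in any of the 6 libraries. ERBB4 had 803 reads in the JEKO1 control and 1228 with ibrutinib, at most 2 in any library of the other lines, and did not pass the filter.

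Many glycolytic enzymes had slightly lower levels with ibrutinib in each line. Of 31 genes on the list of glycolysis and hypoxia targets, 30 were tested. At an unadjusted p-value under 0.05, 19 were lower and 0 higher, 19 were lower in all 3 lines, and the median log2 fold change was -0.23 (medians by line -0.13, -0.29 and -0.20 in JEKO1, JVM2 and MAVER1). No member passed the adjustment over all genes in edgeR, and DESeq2 called 7. ALDOA, the aldolase of glycolysis, had 1775 and 1434 normalised CPM in JEKO1, 2306 and 1898 in JVM2 and 2119 and 1705 in MAVER1, with log2 ratios within -0.31 to -0.28 (fold change -0.30, standard error 0.05, adjusted p = 0.165). LDHA, lactate dehydrogenase, had 1512 and 1227 in JEKO1, 1450 and 1175 in JVM2 and 1704 and 1425 in MAVER1 (-0.29, adjusted p = 0.165). ALDOC had the lowest p-value of the list (log2 ratios -0.53, -0.61 and -0.46, adjusted p = 0.0596). PGAM1 (-0.28), HK2 (-0.27), PGK1 (-0.26), TPI1 (-0.23), ENO1 (-0.23) and GPI (-0.20), further enzymes of the pathway, were lower in every line too. DDIT4, an inhibitor of mTORC1, had 16.0 and 18.0 normalised CPM in JEKO1, 138 and 50.8 in JVM2 and 38.2 and 23.9 in MAVER1. VEGFA had 39.2 and 38.6, 77.9 and 50.1, and 63.3 and 48.0 in the same order. The enzymes and targets named here were chosen after their values were seen. Leaving out JVM2 or MAVER1 left 13 members lower at an unadjusted p-value under 0.05 in each case, and leaving out JEKO1 left 20. Of all genes, 6.37%, 3.9% and 3.86% were lower in these fits, in the same order.

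Enzymes of cholesterol synthesis had small log2 fold changes, mostly below 0, down to -0.31 in DHCR7. Of the 26 genes for cholesterol synthesis and uptake, 25 were tested. Of these, 10 were lower and 0 higher at an unadjusted p-value under 0.05, 16 were lower in all 3 lines, and the median was -0.14. edgeR called 0 and DESeq2 1. The members with an unadjusted p-value under 0.05 came from successive steps of the pathway. ACAT2 (-0.19) and HMGCS1 (-0.27) make HMG-CoA. MVK (-0.18), MVD (-0.24), FDPS (-0.19) and FDFT1 (-0.16) carry it on to squalene, and LSS (-0.21), CYP51A1 (-0.21) and DHCR7 (-0.31) form and finish the sterol. HMGCS1 had 136 and 107 normalised CPM in JEKO1, 131 and 112 in JVM2 and 56.7 and 47.8 in MAVER1 (standard error 0.06, adjusted p = 0.257). DHCR7 had 65.2 and 52.2, 156 and 121, and 309 and 260.1 (standard error 0.06, adjusted p = 0.165). INSIG1, the sterol-regulated retainer of SREBP, was the last of the 10 (-0.25, adjusted p = 0.378). ABCG1, a sterol exporter, had ratios of -0.21, -0.48 and 0.11. The sterol regulatory element TCACNCCAC, on either strand, was found in 1 of the 24 RefSeq promoter windows (4.17%) of the 19 list genes that had one, and in 0.883% of all windows. Without MAVER1, 6 members were lower at an unadjusted p-value under 0.05, and without JEKO1 or JVM2 7 each. The shares of all genes lower were 3.9%, 3.86% and 6.37% in the same order.

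**Figure D3:**
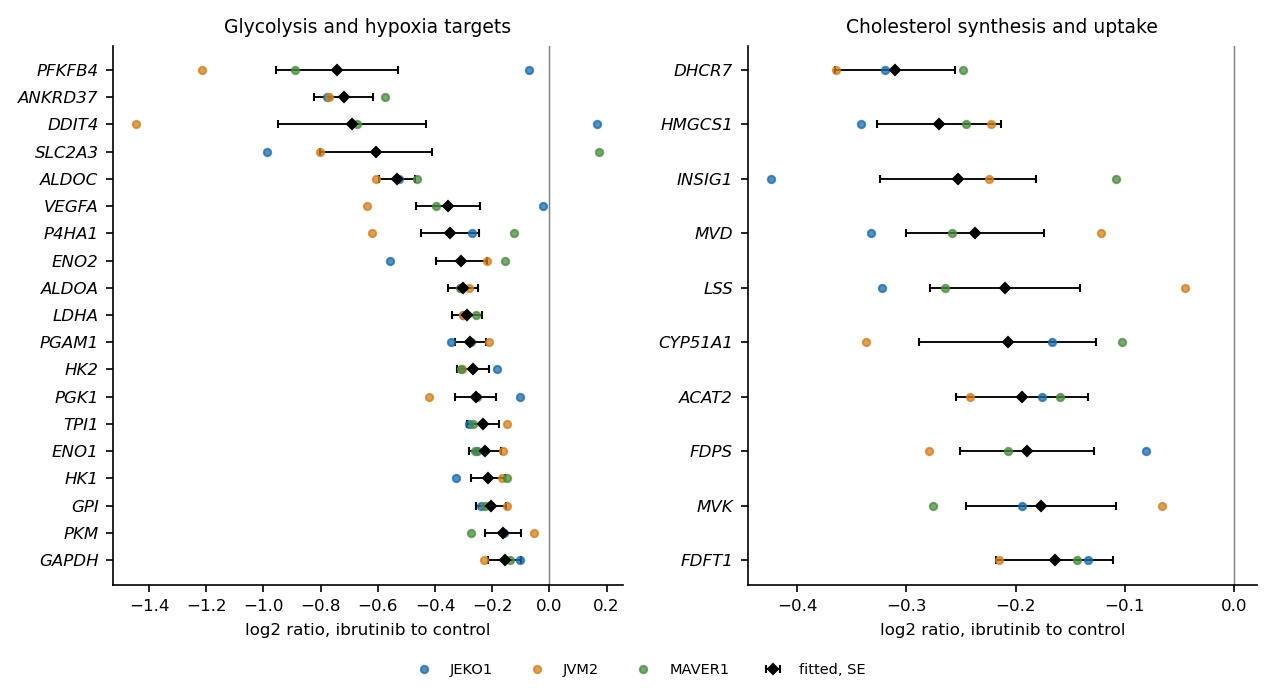
Log2 ratio of normalised CPM, ibrutinib to control, in each cell line (coloured dots) and the fitted log2 fold change with its standard error (black) for members of 2 lists with an unadjusted p-value under 0.05. All dots of the cholesterol enzymes lie below 0, and among the 19 glycolysis and hypoxia genes 2 dots lie above it, DDIT4 in JEKO1 and SLC2A3 in MAVER1. The genes shown were selected by a test on these same libraries. Of all 25 cholesterol genes tested, 4 were higher in JEKO1, 5 in JVM2 and 6 in MAVER1. Of all 30 glycolysis and hypoxia genes, 8, 2 and 5 were higher in the same order.

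Members of the other metabolic lists are given by their counts. NRF2 targets (19 of 20 tested) had a median of -0.11, with 11 members lower in all 3 lines and 5 lower at an unadjusted p-value under 0.05: FTL (-0.33), SLC7A11 (-0.37), SQSTM1 (-0.23), PGD (-0.16) and TKT (-0.15). FTL, the ferritin light chain, had 378 and 308 normalised CPM in JEKO1, 1688 and 1192 in JVM2 and 834 and 736 in MAVER1. Fatty acid synthesis genes (12 tested) had a median of -0.15, with 4 lower (FADS2, ACLY, SCD and FASN) and 1 higher (ELOVL6), and LXR targets (9 tested) a median of -0.13, with 1 lower. MHC class II genes (15 tested) had a median of -0.06, with 5 lower, and 0 without JEKO1.

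Cell-cycle lists had medians slightly above 0 after 48 h of ibrutinib. DNA replication genes (38 tested) had a median of 0.06 on the log2 scale, with 3 higher and 0 lower at an unadjusted p-value under 0.05, and 20 were higher in all 3 lines. Mitosis genes (33 tested) had a median of 0.06, again with 3 higher and 0 lower. CCND1, the cyclin D1 gene that the translocation of MCL activates, had 3117 and 3449 normalised CPM in JEKO1, 315 and 295 in JVM2 and 4126 and 4492 in MAVER1 (0.06, standard error 0.07, adjusted p = 0.81). CDKN1A, the inhibitor p21, was lower (-0.45) at an unadjusted p-value under 0.05. BCL2 (-0.13, adjusted p = 0.655) and MCL1 (-0.03, adjusted p = 0.941) missed the threshold, and BCL2 stood at 96.9 and 74.3 normalised CPM in JEKO1, 137 and 136 in JVM2 and 569 and 562 in MAVER1. In the BCL2 family list (15 tested, median -0.06), HRK, a BH3-only activator of apoptosis, was the 1 member higher (0.87), and BID, BIK, BAK1 and PMAIP1 were lower, all at an unadjusted p-value under 0.05. HRK had 537 and 974 reads in JEKO1, 186 and 350 in MAVER1 and 0 in both JVM2 libraries. CXCR4, the receptor for the homing chemokine CXCL12, had a log2 fold change of 0.14 (adjusted p = 0.643).

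The stress and interferon lists held no called gene in edgeR, and DESeq2 called 1 p53 target. Unfolded protein response genes (29 tested) had a median of -0.04, with 1 higher and 4 lower at an unadjusted p-value under 0.05, p53 targets (24 tested) one of -0.0044, with 3 higher and 2 lower, and interferon-stimulated genes (34 tested) one of -0.02, with 1 higher and 3 lower. ATF4 and CHOP targets (29 tested) had a median of 0.0089, with 0 higher and 4 lower, and differed in sign between lines: 25 members were higher in JEKO1 (median 0.31), while 27 were lower in JVM2 (median -0.31). MYC targets and ribosome biogenesis genes (34 tested) had a median of -0.02, with 0 higher and 2 lower.

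Transcription factors of B cells and plasma cells (22 tested) had a median of -0.03. At an unadjusted p-value under 0.05, ETS1 (0.21), BACH2 (0.50) and EBF1 (0.22) were higher, and MEF2C (-0.40), POU2F2 (-0.24) and SPI1 (-0.20) lower, with no member called by edgeR or DESeq2. BACH2, a repressor of plasma cell differentiation, had 4022 and 6943 reads in JEKO1, 4 and 11 in JVM2 and 2025 and 2329 in MAVER1. ETS1 was higher in all 3 lines, with 9818 and 11721, 14099 and 16279, and 13434 and 15773 reads in the same order. Of 13 tested ERK feedback genes (median -0.31), EGR1 was called, and ETV4 (-0.43) and SPRY1 (-0.39) were lower at an unadjusted p-value under 0.05. Of 18 tested chemokines and homing receptors (median -0.08), 2 were lower (CXCR5 and ITGB7, -0.17) and 1 higher (S1PR4, 0.25) at an unadjusted p-value under 0.05. CXCR5, which guides B cells to follicles, had a log2 fold change of -1.68 (adjusted p = 0.354), with 105 and 16 reads in JEKO1, 2 and 1 in JVM2 and 39 and 26 in MAVER1.

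The largest changes were ranked by fold change among genes with a symbol, a mean level of 1 log2 CPM or more, an unadjusted p-value under 0.05 and the same direction in all 3 lines. On the lower side they were EGR2 (-2.22), MPEG1 (-1.56), SIRPA (-1.54), FCRL5 (-1.53), PDCD1 (-1.52), WNT10A (-1.51), LILRA4 (-1.50) and SH2D2A (-1.39). PDCD1, the inhibitory receptor PD-1, had 1405 and 270 reads in JEKO1, 248 and 192 in JVM2 and 150 and 50 in MAVER1 (adjusted p = 0.301). SH2D2A, an adaptor of lymphocyte kinases, had 36.6 and 8.79 normalised CPM in JEKO1, 65.3 and 31.7 in JVM2 and 9.01 and 4.43 in MAVER1 (adjusted p = 0.0963). SIRPA, the receptor for CD47, had 625 and 69 reads in JEKO1, 17 and 9 in JVM2 and 343 and 281 in MAVER1. On the higher side were TAS1R3 (1.50), COL18A1 (0.99), CPNE2 (0.90), KREMEN1 (0.87), PLCH2 (0.86), NYNRIN (0.73) and GOLGA7B (0.70), with adjusted p-values from 0.165 to 0.361. In JVM2, MPEG1 had 2 reads in each library and NYNRIN 0 and 2, so their direction in that line carries little weight. TAS1R3 had 657 and 2900 reads in JEKO1, 30 and 37 in JVM2 and 50 and 64 in MAVER1. COL18A1, a basement membrane collagen, had 383 and 572, 15 and 54, and 222 and 525 reads in the same order.

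The comparison of both drugs with ironomycin gave the same contrast in 6 libraries of the same lines that the comparison with control does not use. There, 62 of 16263 genes were called (0.381%), 33 of them higher, and 20.0% had an unadjusted p-value under 0.05. Of the 16 genes called with ibrutinib alone, 15 had the same direction and an unadjusted p-value under 0.05, and 7 were called again: MPEG1 (-2.01), CD180 (-1.44), CST7 (-3.76), EGR1 (-1.71), SLA (-2.21), RGS2 (-1.25) and RAG1 (1.62). VPREB1 had 1.29 there (adjusted p = 0.128) and NR4A1 -1.12 (adjusted p = 0.0505). Of the genes described here that were not called alone, EGR2 (-1.73), FCRL5 (-1.52), PDCD1 (-1.57), SH2D2A (-1.43), CD72 (-0.75), DUSP2 (-0.50), COL18A1 (0.94) and HRK (1.01) were called there. Other genes described as lower with ibrutinib alone were near 0 or higher there. Examples, picked after their values were seen, were NR4A3 (-0.04), CDKN1A (0.05), FOSB (0.15), SQSTM1 (0.17) and SLC7A11 (0.37). Across 15436 genes tested in both comparisons the log2 fold changes had a Pearson correlation of 0.451, a description over genes that share lines and expression levels.

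**Figure D4:**
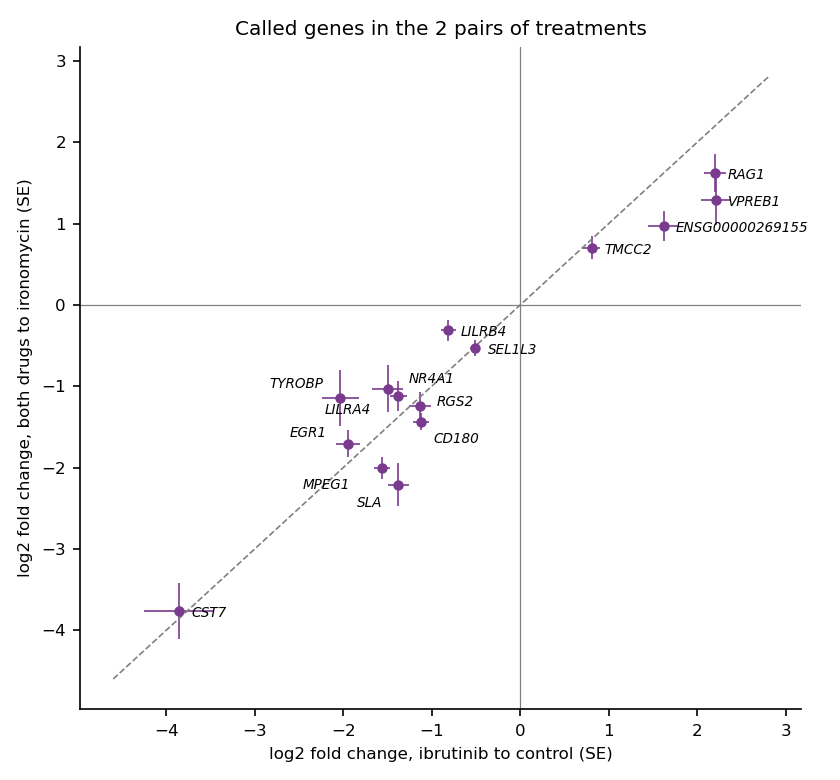
Log2 fold change with ibrutinib in the absence (x axis, ibrutinib to control) and presence (y axis, both drugs to ironomycin) of ironomycin for 15 of the 16 called genes, with standard errors and a dashed line of equal change. Each of the 15 lies on the same side of 0 on both axes.

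Gene groups can be set side by side in the same way, but the background differs. Of the 15436 genes tested in both comparisons, 1593 were lower and 1533 higher at an unadjusted p-value under 0.05 with ironomycin present. With ibrutinib alone 906 of 15705 were lower and 575 higher, so counts of members in the 2 settings are not directly comparable. The median of inhibitory receptors and phosphatases was -0.42 with ibrutinib alone and -0.42 with ironomycin present, where 16 were tested and 9 were lower and 1 higher at an unadjusted p-value under 0.05. For cholesterol genes it was -0.14 and -0.13 (9 lower), and for glycolysis and hypoxia targets -0.23 and -0.15 (11 lower and 3 higher). BCR-induced genes had -0.46 and -0.17 (11 lower and 1 higher). The cell-cycle lists had opposite signs: DNA replication genes had a median of 0.06 alone and -0.19 with ironomycin present (14 lower), and mitosis genes 0.06 and -0.26 (25 lower). CD22 also had opposite signs, at -0.21 alone and 0.33 with ironomycin present. The difference between the 2 settings was not tested.

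The ibrutinib effect itself differed between lines in 177 genes, tested over all 12 libraries with each line's libraries with and without ironomycin. The change was largest in JEKO1 for 142 of them, in MAVER1 for 21 and in JVM2 for 14, and smallest in JVM2 for 106. JEKO1 had the lowest dose of ibrutinib and MAVER1 the highest, and dose and line cannot be told apart. The count of 177 became 38 without JEKO1 and 10 without JVM2, each comparing the lines that were left. Over the 11539 genes whose mean level was 1 log2 CPM or more, the standard deviation of log2 ratios to control was 0.32 (JEKO1), 0.23 (JVM2) and 0.21 (MAVER1), and 162, 50 and 44 genes were lower by at least 1. ZBTB32, a zinc finger repressor of lymphocytes, had the lowest p-value, with 721 and 70 reads in JEKO1 (control and ibrutinib), 4204 and 3972 in JVM2 and 14 and 5 in MAVER1. MYO1E, an unconventional myosin, had 1106 and 121 reads in JEKO1, 10400 and 8825 in JVM2 and 21 and 15 in MAVER1. CD86, the costimulatory ligand of CD28, was lower in JEKO1 (1550 and 467 reads) and MAVER1 (236 and 75) and not in JVM2 (7037 and 7807). HIVEP3 had the same order (log2 ratios -2.49, -1.10 and 0.13 in JEKO1, MAVER1 and JVM2). MX1, an interferon-induced GTPase, was lower in JEKO1 alone (1023 and 422 reads), with 13167 and 14977 in JVM2 and 920 and 981 in MAVER1.

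**Figure D5:**
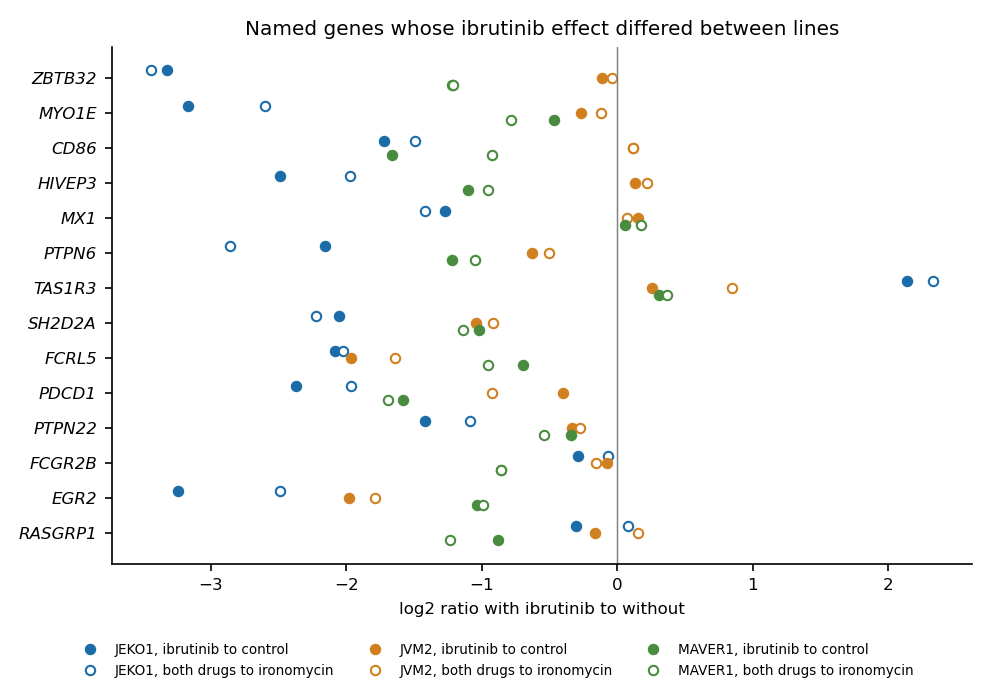
Log2 ratio of normalised CPM with ibrutinib to without, in each cell line, for the 14 named genes whose ibrutinib effect differed between lines, from control (filled) and from ironomycin (open). For 11 of the 14 both JEKO1 dots lie farther from 0 than any dot of the other lines, the exceptions being RASGRP1, FCGR2B and CD86.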

How the data were processed

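RNA was sequenced as paired-end polyA libraries. The authors deposited raw read counts per gene, and the submitters' processing notes name STAR, GRCh37 and DESeq2. Versions and strand setting are not given in the sources used here. Depth is given in the report, and p-values of the 2 ibrutinib comparisons measure the spread between 3 lines.

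Counts were tested in edgeR 4.0.16 (R 4.3.3) with the quasi-likelihood F-test, TMM normalisation, filterByExpr and cell line as a block, with Benjamini-Hochberg adjustment over all genes tested. A gene was called at an adjusted p-value under 0.05. Single-line log2 ratios used a prior count of 2. The difference between lines was a test of 2 coefficients over 12 libraries, whose residual is the disagreement, within a line, of the ibrutinib effect with and without ironomycin. DESeq2 1.42.0 and limma 3.58.1 (voom) were alternatives, and the scripts were tested on simulated data. Same-numbered libraries come from 1 cell line, and their deviations from the group means correlated at 0.961 to 0.975 (different lines -0.653 to -0.157).

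Named genes were those called, the 8 largest rises and falls, members of 4 lists (BCR signalosome, inhibitory receptors, BCR-induced genes and cholesterol genes) with an unadjusted p-value under 0.05, a set of BCR, MCL and sterol genes, the matching-cysteine kinases, and the 5 genes with the lowest p-value between lines. Other genes were named after their values were seen, as was the CArG search, CC then 6 A or T then GG. Members, lists and tests were chosen with earlier results of these data known. Some genes named by this rule are not reported here. Gene symbols and promoters came from RefSeq tables, and 23978 of the 63677 genes had no symbol.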

Additional observations from a re-analysis of the deposited data

Results flagged for a closer look

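The ibrutinib effect differed between cell lines in 177 genes by edgeR's test of that difference. The lowest adjusted p-values were those of ZBTB32 (9.04e-06), MYO1E (0.00023), MX1 (0.000469), CD86 (0.000469) and HIVEP3 (0.000469). Dose and line cannot be told apart.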

How the results depend on the processing

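Of the alternatives, size factors (16), library totals (14) and a fold minimum (12) stayed within 1.5 times the 16 calls with ibrutinib alone. Without the replicate block for the cell line the fit called 0 genes (5 at an unadjusted p-value under 0.05), DESeq2 93, limma voom 28, no low-count filter 27, a mean of at least 1 log2 CPM 2, all 12 libraries with additive terms 0 (680 unadjusted) and with ironomycin by line 29. DESeq2, limma voom and the fit with no filter kept all 16 genes. Leaving out 1 line gave 0 to 147. With library totals 765 genes were higher and 692 lower at an unadjusted p-value under 0.05, against 575 and 906. With ironomycin present, 62 calls became 0 without the replicate block (6 unadjusted), 266 with DESeq2 and 170 to 336 on leaving out 1 line, and library totals changed the split of 33 higher and 29 lower to 40 and 22. The 177 genes that differed between lines became 335 with DESeq2, 702 with a term for both drugs and 10 to 231 on leaving out 1 line. Without the block, 0 of the glycolysis, cholesterol and inhibitory receptor members had an unadjusted p-value under 0.05. On leaving out 1 line, log2 fold changes took both signs for CD79A (-0.0654 to 0.0448), CD79B (-0.0305 to 0.332), CCND2 (-0.0278 to 0.142), MCL1 (-0.113 to 0.0486), BLK (-0.243 to 0.0941), JAK3 (-0.422 to 0.0658) and MX1 (-0.583 to 0.115). CCND2 also changed sign with DESeq2 (-0.62) and with additive terms (-0.0897), and MX1 without the block (0.0929). The cause was not tested. At a mean of at least 1 log2 CPM no T and NK cell or myeloid marker was left to give a median. In genes with fewer than 20 reads in both JVM2 libraries, which were as deep as the others, the ratio of that line is imprecise.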
